A study of Mus musculus with 4 samples.

Results

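The 10 genes described here code for lipid-handling proteins and for the TREM2 receptor and proteins made beside it in macrophages: Apoe, Trem2, Gpnmb, Spp1, Cd36, Lpl, Fabp4, Fabp5, Pltp and Abca1. They were chosen by symbol, not by their values, and all 10 were found among the 32285 genes of the matrices. Their RNA was followed across the myeloid cells of mouse tumors by single-cell sequencing of 2 gene expression libraries, WT and VISTA KO. VISTA is an inhibitory receptor of myeloid cells and T cells, encoded by Vsir. Both libraries came from bone marrow chimeras on the C57/BL6 background that had been left for 6 weeks to reconstitute and then carried MC38 tumors, grown from a mouse colon carcinoma line. Tumors were pooled at 9 to 10 mm, the CD45.1 and CD45.2 alleles served to tell donor cells apart, and the sort took viable CD11b+ cells, so each library mixes the cells of several animals. The sources used here do not give the host strain, its conditioning, the knockout allele or whether both marrows shared a tumor.

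TREM2 is a surface receptor that binds lipids and lipoproteins, signals through the adaptor TYROBP and is known for marking lipid-laden macrophages in tumors, fat and atherosclerotic plaques. Such cells take up lipid through scavenger receptors and lipoprotein lipase, carry fatty acids on small binding proteins inside the cell, break down membranes and lipoproteins in lysosomes, and return cholesterol to apolipoproteins through transporters that the oxysterol receptor LXR switches on. In tumors, macrophages with complement C1q genes fall into several states, of which some carry the folate receptor gene Folr2 and others matrix metalloproteinase genes such as Mmp12.

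The WT library held 61753547 UMIs (sequenced RNA molecules) over 10241 barcodes and the VISTA KO library 80366761 over 15257, more barcodes than the 10000 cells loaded for each. After filtering, 10193 and 15140 cells were left, with medians of 4692 and 4212 UMIs, and 47 barcode sequences occurred in both libraries. Vsir was measured at 136.5 UMIs per 1000000 (CPM) for WT and 46.19 for VISTA KO: RNA of the gene was lower but not absent, and whether these 3′ reads lie in the deleted part is not known here. Each group has 1 library, so no test was run; every interval is a 95% interval that covers counting error only, and the genotype cannot be told apart from the library, its animals or its sort. A ratio is called higher or lower here when it is at least 1.5-fold, its interval leaves out 1 and both sums hold at least 20 UMIs together. The 10 genes were kept out of the clustering that defined the cell classes, though genes that vary with them were not. Of 19 clusters, 5 were macrophage-like, with 2360 WT and 6499 VISTA KO cells. One of these was Folr2+ (336 and 672 cells), led by Ccl8, Fcrls and Folr2. One was Mmp12+ (277 and 425 cells), led by Mmp12, Mt2, Hmox1 and Pf4. C1qa, a subunit of complement C1q, stood at 6977 and 6943 CPM in the Folr2+ cells and at 1891 and 1992 CPM in the Mmp12+ cells. Folr2 itself was found in 50.9% and 38.4% of Folr2+ cells, and Mmp12 in 48.4% and 62.1% of Mmp12+ cells. The clusters led by Mmp12, Cxcl9 and Ccl7 were named macrophage-like only from the share of cells with macrophage markers. Over all macrophage-like cells the 12 macrophage markers summed to 10587 and 10891 CPM, and the 11 monocyte markers to more, 12449 and 11416 CPM. In monocyte-like cells these sums were 2715 and 3152 CPM against 19470 and 18677 CPM. The macrophage-like class thus carried much monocyte RNA too. A further cluster held neutrophil and macrophage markers together, with medians of 9906 and 10505 UMIs per cell, and was kept apart; it took up 18.5% of WT and 5.16% of VISTA KO cells.

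**Figure D1:**
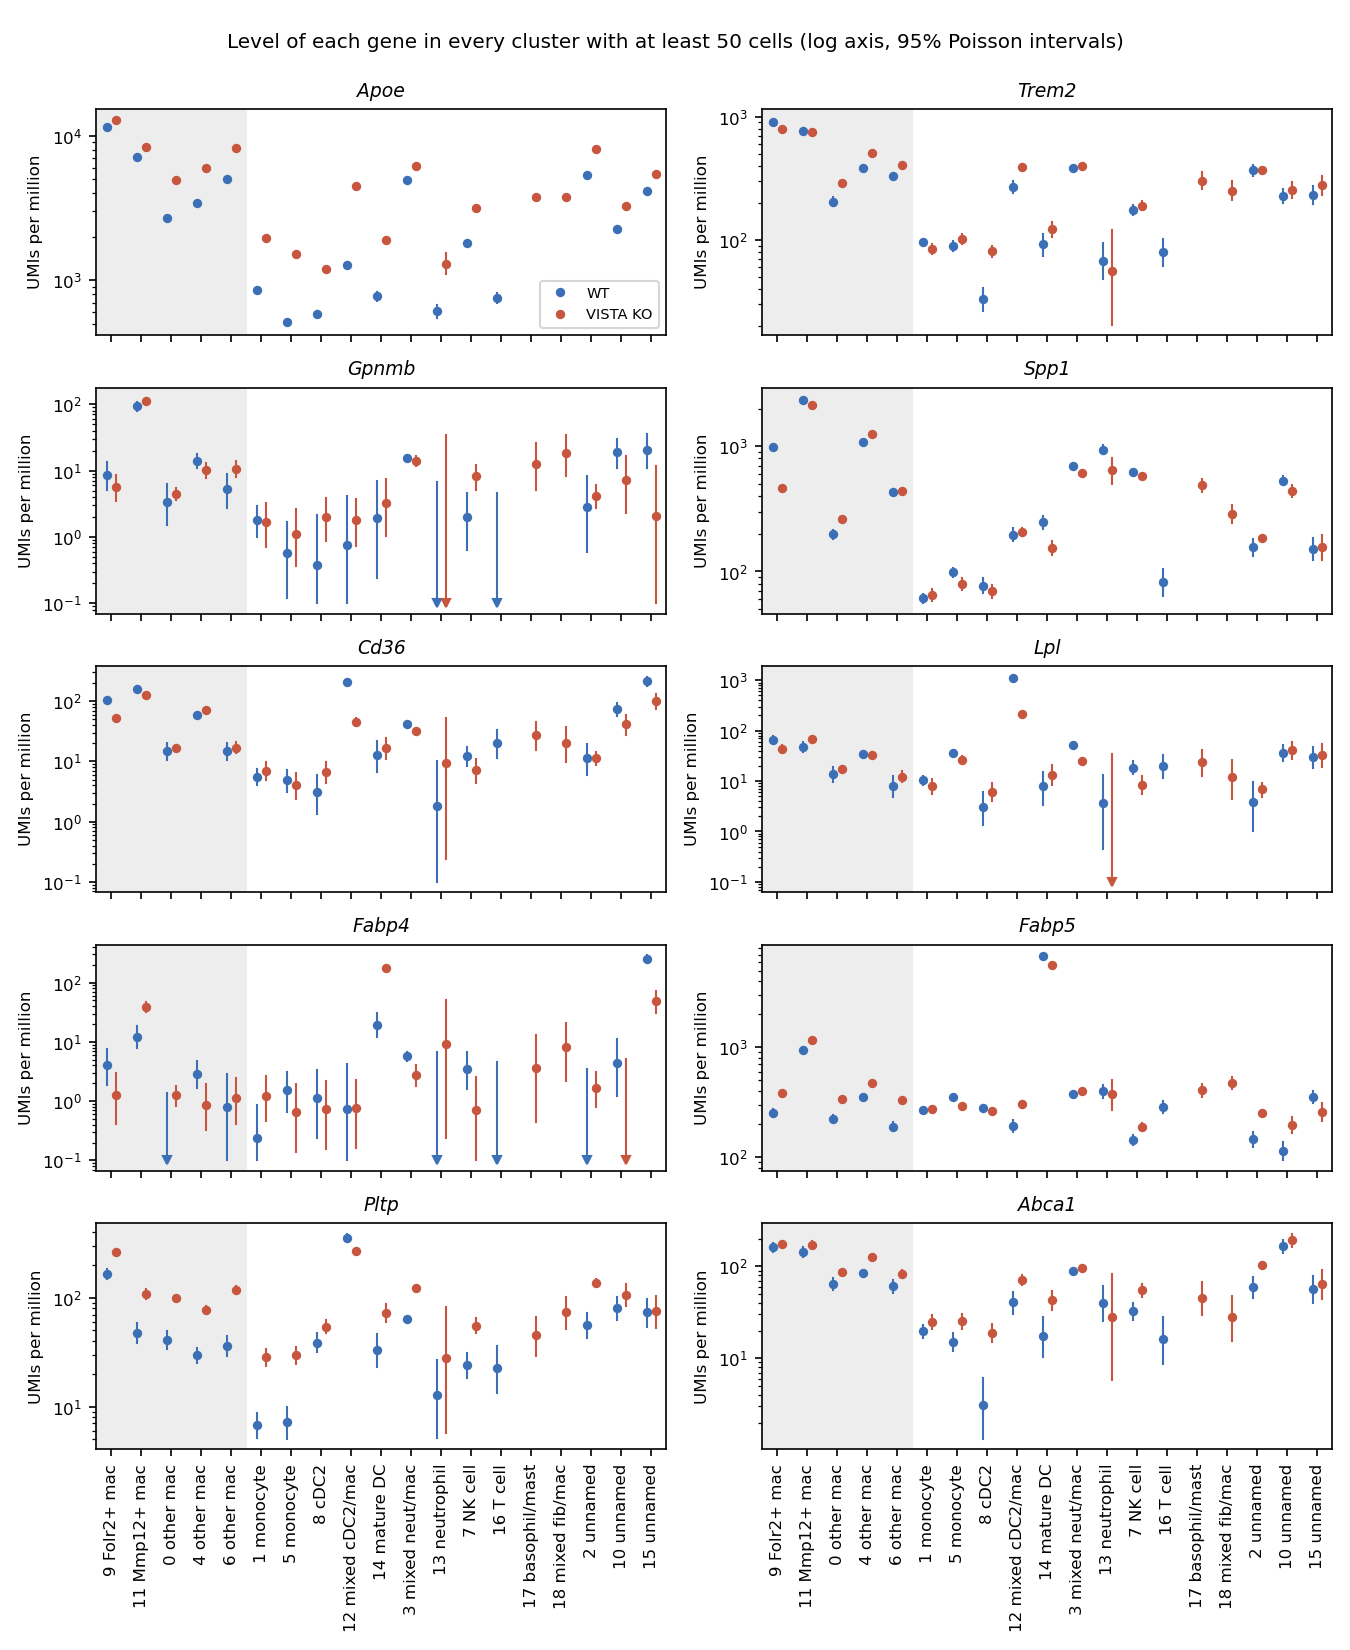
Level of each of the 10 genes in every cluster with at least 50 cells in that library, in CPM on a log axis, 1 point per cluster and library with its 95% Poisson interval. Trem2 and Apoe peak in the Folr2+ cluster (11542 CPM of Apoe in WT), Gpnmb and Spp1 in the Mmp12+ cluster, Fabp5 in the mature DC-like cluster and Lpl in the mixed cDC2 and macrophage cluster.

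Only 4 of the 10 genes, Apoe, Trem2, Gpnmb and Spp1, had their highest level in a macrophage-like cluster in both libraries; the other 6 had it elsewhere in at least 1 library. Trem2 was highest in Folr2+ cells, at 909.5 CPM (870.3 to 950) in WT and 794.9 (767.2 to 823.3) in VISTA KO, where it was found in 89.0% and 88.0% of cells. Mmp12+ cells followed at 766.2 and 749.9 CPM. The intervals of these neighbours were apart in WT and overlapped in VISTA KO. Apoe, the lipoprotein component that TREM2 binds, had the same order, with 11542 and 12817 CPM in Folr2+ cells and 7143 and 8371 CPM in Mmp12+ cells.

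Gpnmb codes for a lysosomal and surface glycoprotein of phagocytes. Mmp12+ cells had 92.46 CPM of it (79.23 to 107.3) in WT, and 111.1 (99.53 to 123.7) in VISTA KO. The next cluster in the order reached 20.7 CPM in WT and 18.28 in VISTA KO, with no overlap of intervals. Mmp12+ cells were 2.72% of WT cells and held 25.1% of Gpnmb UMIs; in VISTA KO they were 2.81% of cells and held 41.3%. The mixed neutrophil and macrophage cluster held a larger part in WT, 48.0%, against 15.5% in VISTA KO.

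Spp1 codes for osteopontin, a secreted ligand of integrins and CD44. It peaked in Mmp12+ cells, at 2358 and 2143 CPM. A macrophage-like cluster led by Ccl7, Ccl2, Spp1 and Arg1 came next, at 1077 and 1250 CPM. Folr2+ cells ranked below it in both libraries, at 990.5 and 463.9 CPM. Spp1 UMIs were uneven among cells: in WT Folr2+ cells the 34 cells with the most held 78.2% of them, against 28.4% for Trem2.

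The genes of lipid uptake were highest outside the named macrophages in WT. Lpl, the lipase that frees fatty acids from lipoproteins, stood at 1122 CPM (1066 to 1180) in the WT mixed cDC2 and macrophage cluster, whose leading genes include Lpl, Mgl2, Ccl17 and Clec4b1; the next cluster, Folr2+, had 66.6 CPM. In VISTA KO the same cluster was again first, at 215.8 CPM. Cd36, a scavenger receptor that takes up oxidised lipoprotein and fatty acids, stood at 216.6 CPM in an unnamed WT cluster led by Ace, Adgre4, Eno3, Fabp4 and Treml4, at 212.1 CPM in the mixed cDC2 cluster and at 161 CPM in Mmp12+ cells. The first of these overlapped the second in its interval. In VISTA KO, Mmp12+ cells came first, at 125.7 CPM, overlapping the unnamed cluster at 100.7 CPM.

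The fatty acid binding proteins FABP4 and FABP5 are coded on the same part of chromosome 3 (GRCm38.p6, Fabp4 from 10204342 to 10208616, Fabp5 from 10012585 to 10016610). Their patterns differed. Fabp5 was highest in mature DC-like cells, at 6749 and 5579 CPM, which held 25.8% and 23.2% of its UMIs from 1.67% and 1.71% of cells. Mmp12+ cells were second in both, at 952.8 and 1164 CPM. Fabp4 was sparse, with 378 UMIs in all of WT and 518 in VISTA KO. It was highest in the unnamed Ace cluster in WT, at 248.4 CPM, and in mature DC-like cells in VISTA KO, at 175 CPM.

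Among the genes of export and transfer, Abca1, the transporter that loads cholesterol onto apolipoproteins, differed little between its top clusters: Folr2+ cells had 161.1 and 177.2 CPM, Mmp12+ cells 142.9 and 172.8, and an unnamed cluster 166.2 and 191.5, with overlapping intervals between neighbours. Pltp, the phospholipid transfer protein, was highest in the mixed cDC2 and macrophage cluster in WT, at 353 CPM against 163.8 CPM in Folr2+ cells. In VISTA KO those 2 clusters overlapped, at 269.9 and 265.2 CPM.

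**Figure D2:**
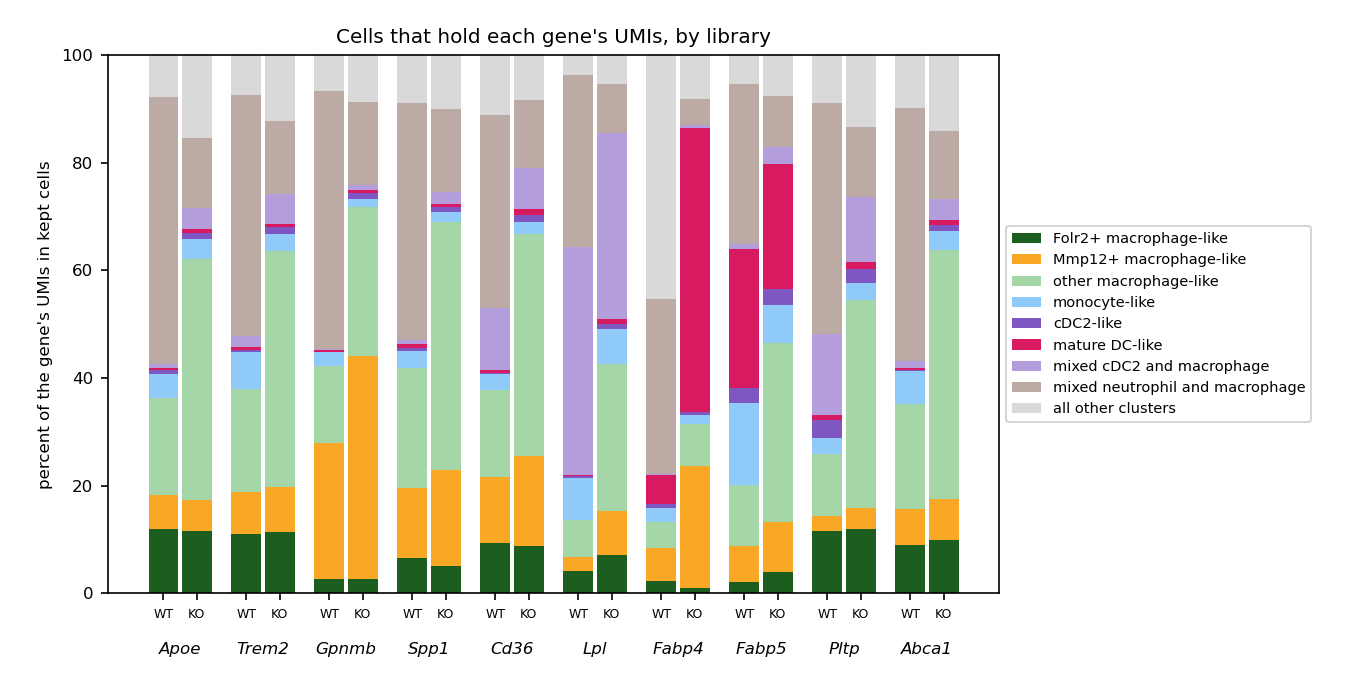
Share of each gene's UMIs, in percent of that library, held by the cell classes, 1 bar for WT and 1 for VISTA KO per gene. The mixed neutrophil and macrophage class holds 49.5% of WT Apoe UMIs and 12.98% of those in VISTA KO, and Mmp12+ cells hold 25.1% and 41.3% of Gpnmb UMIs.

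The contrast of Mmp12+ with Folr2+ cells within each library split the genes in 3. Of the 10, 5 were called higher in WT, where 8.96% of 8518 genes were, and 6 in VISTA KO, where 7.88% of 9550 were. In each library 2 were called lower, against 13.7% and 13.3% of genes. Gpnmb was 10.3-fold higher in WT (92.46 against 8.55 CPM; log2 3.37, 2.75 to 4.201) and 18.9-fold in VISTA KO (111.1 against 5.627 CPM; log2 4.24, 3.68 to 4.997). Fabp5 was 3.76-fold and 3.05-fold higher and Spp1 2.38-fold and 4.62-fold higher. Cd36 was 1.53-fold higher in WT, close to the threshold, and 2.43-fold in VISTA KO; with finer clusters its log2 ratios were 0.16 and 0.27 and neither was called.

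Fabp4 was higher in Mmp12+ cells in both libraries, with log2 ratios of 1.503 (0.43 to 2.89) and 4.69 (3.67 to 6.59), on 9 and 5 UMIs in Folr2+ cells. Lpl was called higher in VISTA KO, at a log2 ratio of 0.61 (0.31 to 0.92), and stood at -0.49 (-0.89 to -0.11) in WT; with finer clusters the VISTA KO ratio was 0.12 and not called, and the difference between the libraries was not tested. Pltp was lower in Mmp12+ cells, by 3.40-fold in WT and 2.44-fold in VISTA KO. Apoe was called lower too, at -0.69 and -0.61, but the median gene was itself at -0.12 and -0.14, and scaled to it Apoe was no longer called in either library. Trem2 (-0.25 and -0.08) and Abca1 (-0.17 and -0.04) were not called, in either library.

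Markers of other cells stood beside these ratios. All 10 listed neutrophil markers summed to 292.1 CPM in WT and 181.1 in VISTA KO Folr2+ cells, and to 1039 and 804.6 CPM in Mmp12+ cells. Of the Mmp12+ sums, Clec4d, which activated macrophages also express, made up 602.6 and 457.4 CPM. S100a8 rose from 22.95 CPM in Folr2+ to 92.46 in Mmp12+ WT cells and from 9.207 to 70.31 in VISTA KO. S100a9 rose from 47.7 to 132.8 CPM and from 12.53 to 88.22. Cxcr2 in WT (6.3 and 4.782 CPM) and Csf3r in VISTA KO (40.67 and 36.48) went the other way. Ly6g had 0 UMIs in the WT Mmp12+ cells, which allows up to 1.59 CPM, and 1 in the VISTA KO cells, but it was low in neutrophil-like cells too (34.93 and 111.8 CPM), so its absence says little. The 12 macrophage markers summed to 22733 and 23388 CPM in Folr2+ cells and to 8726 and 9064 CPM in Mmp12+ cells. In neutrophil-like cells Gpnmb had 0 UMIs in both libraries, which at 3 counts allows up to 5.52 CPM in WT and 27.9 in VISTA KO. Fabp5 stood at 397.1 and 372.5 CPM and Spp1 at 941.3 and 642.6 CPM. All 3 genes were lower in neutrophil-like than in Mmp12+ cells. In Folr2+ cells Fabp5 stood at 253.4 and 382.1 CPM and Spp1 at 990.5 and 463.9 CPM. Neutrophil-like cells were thus above Folr2+ cells for Fabp5 in WT and Spp1 in VISTA KO, and below them in the other library. For Gpnmb the VISTA KO limit lay above the 5.627 CPM of Folr2+ cells. The part of neutrophil RNA in the ratios was not tested.

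**Figure D3:**
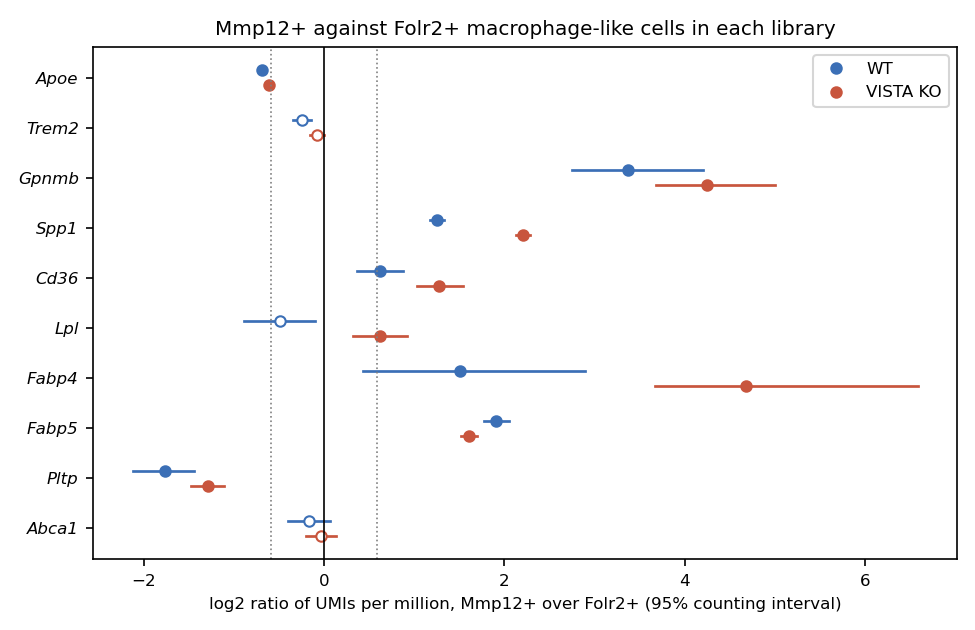
Log2 ratio of Mmp12+ over Folr2+ macrophage-like cells for each of the 10 genes, 1 point per library with its 95% counting interval. Gpnmb, Fabp4, Fabp5, Spp1 and Cd36 lie above 0 in both libraries and Pltp and Apoe below, while Lpl lies below 0 in WT and above it in VISTA KO.

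Promoter windows are shown for 6 genes because they stood on different sides of this contrast: Gpnmb and Spp1 (higher in Mmp12+ cells), Trem2 and Abca1 (not called), and Apoe and Pltp (called lower). The windows run from 250 bases before to 50 after a RefSeq start on GRCm38.p6, 5′ to 3′ on the gene's strand, and 7 of the 10 genes matched an entry, with 10 windows. Capitals mark the motifs searched on both strands, none of which overlap each other here: TCATGTG (M-box, the form bound by MITF family factors), CACGTG (E-box), TGACTCA (AP-1) and GAGGAAG (PU.1, the myeloid factor).
Gpnmb, chr6:49036268-49036567, + strand: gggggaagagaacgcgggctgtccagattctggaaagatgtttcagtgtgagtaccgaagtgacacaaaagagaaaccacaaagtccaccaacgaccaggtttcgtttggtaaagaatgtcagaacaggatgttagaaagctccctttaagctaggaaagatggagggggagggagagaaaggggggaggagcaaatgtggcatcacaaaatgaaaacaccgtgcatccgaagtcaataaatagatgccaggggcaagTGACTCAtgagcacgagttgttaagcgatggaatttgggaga
Spp1, chr5:104434861-104435160, + strand: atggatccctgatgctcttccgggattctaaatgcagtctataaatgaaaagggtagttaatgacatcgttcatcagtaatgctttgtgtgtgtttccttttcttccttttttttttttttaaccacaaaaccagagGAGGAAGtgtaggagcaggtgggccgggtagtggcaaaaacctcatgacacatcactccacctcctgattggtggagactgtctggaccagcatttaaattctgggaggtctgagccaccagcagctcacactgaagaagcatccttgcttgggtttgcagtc
Trem2, chr17:48346151-48346450, + strand: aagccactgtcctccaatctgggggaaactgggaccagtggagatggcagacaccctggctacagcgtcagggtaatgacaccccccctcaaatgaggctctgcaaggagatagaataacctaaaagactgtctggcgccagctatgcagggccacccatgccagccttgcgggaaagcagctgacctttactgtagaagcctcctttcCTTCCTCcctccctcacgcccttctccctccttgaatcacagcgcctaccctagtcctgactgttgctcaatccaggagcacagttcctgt
Abca1, chr4:53159846-53160145, - strand: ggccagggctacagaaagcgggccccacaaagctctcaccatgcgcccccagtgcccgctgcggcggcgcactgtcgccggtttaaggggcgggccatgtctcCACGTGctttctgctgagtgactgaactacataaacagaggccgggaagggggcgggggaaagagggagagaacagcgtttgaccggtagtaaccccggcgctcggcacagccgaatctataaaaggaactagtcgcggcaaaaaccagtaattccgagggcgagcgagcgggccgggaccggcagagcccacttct
Apoe, chr7:19699139-19699438, - strand: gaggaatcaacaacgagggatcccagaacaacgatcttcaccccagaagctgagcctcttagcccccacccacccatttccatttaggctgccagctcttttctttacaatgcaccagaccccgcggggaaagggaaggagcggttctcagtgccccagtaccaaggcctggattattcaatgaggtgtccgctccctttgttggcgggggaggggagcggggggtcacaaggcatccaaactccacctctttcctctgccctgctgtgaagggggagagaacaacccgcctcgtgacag
Pltp, chr2:164857659-164857958, - strand: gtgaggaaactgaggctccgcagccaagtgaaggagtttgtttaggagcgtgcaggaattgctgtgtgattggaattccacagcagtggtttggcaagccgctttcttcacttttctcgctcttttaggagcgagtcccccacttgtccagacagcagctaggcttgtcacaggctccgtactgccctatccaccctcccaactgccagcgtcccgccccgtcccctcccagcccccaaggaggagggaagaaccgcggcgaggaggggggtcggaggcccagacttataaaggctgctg
Gpnmb held 1 AP-1 match beginning at base 8 after the start, and 5.2% of all 32851 windows hold one. Trem2 and the first Spp1 window each held a PU.1 match, at -41 on the opposite strand and at -113 on the same strand; 13.6% of windows hold one. Abca1 held an E-box at -147, found in 7.15% of windows. No window of the 7 genes held the M-box, found in 3.77% of windows. These are matches of letters in 1 window per start, not sites of binding.

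Gpnmb UMIs also split the Mmp12+ cells themselves. Cells with a Gpnmb UMI numbered 65 of 277 in WT and 113 of 425 in VISTA KO. Their median depths were 5773 and 6060 UMIs, against 5474 and 5604 for the other cells; this split was chosen after the values had been seen. Fabp5 was higher in them, at 1737 against 732.4 CPM in WT (log2 1.247, 1.11 to 1.38) and 1777 against 920.3 in VISTA KO (0.95, 0.85 to 1.05). Spp1 was higher by 1.06 (0.97 to 1.15) and 0.86 (0.78 to 0.93). Fabp4 was higher by 2.18 (0.91 to 3.56) and 1.76 (1.22 to 2.33), while C1qa was lower, at -0.30 and -0.56. The Fabp4 ratios rested on 13 against 10 UMIs in WT and 68 against 50 in VISTA KO. In VISTA KO 1 cell held 52 of the 68, so that ratio leaned on a single cell. Trem2 stood at 0.15 (-0.03 to 0.33) and -0.16 (-0.30 to -0.03). Mmp12, which names the cluster, stood at 1.13 (0.97 to 1.296) in WT and 0.09 (-0.03 to 0.20) in VISTA KO, and Pltp at -0.91 (-2.07 to -0.10) and 0.03 (-0.34 to 0.37). Cd36 differed between the libraries, at 0.06 (-0.37 to 0.44) in WT and 1.03 (0.73 to 1.33) in VISTA KO; for these 3 genes the difference between the libraries was not tested.

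Other genes of the pathways were read against the median gene of the Mmp12+ over Folr2+ contrast (-0.12 and -0.14). Of 11 measured genes of lipid droplets and lipolysis, 5 were called higher in WT and 4 in VISTA KO, with none lower and medians of 0.46 and 0.44. Hilpda, a hypoxia-induced droplet protein that restrains lipolysis, went from 72.9 CPM in Folr2+ to 790.2 in Mmp12+ WT cells and from 73.91 to 739.9 in VISTA KO. G0s2, another lipolysis inhibitor and also a strong neutrophil transcript, was higher at 1.62 and 1.49, beside the neutrophil marker sums above. Of 7 measured MiT/TFE genes, which code for lysosomal stress factors and their regulators, 4 were higher in each library and none lower, with medians of 0.76 and 0.61; Fnip2 stood at 1.248 and 1.21.

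Of 14 lipid-associated macrophage markers, 4 were higher in both (Lgals3, Cd9, Ctsl and Csf1), 1 was lower in WT (Axl) and 2 in VISTA KO (Itgax and Axl). Cd9, a tetraspanin, stood at 1.62 and 2.57. Of 19 measured genes of fatty acid oxidation and PPAR regulation, 0 were higher and 5 lower in WT (median -0.55), where 13.7% of all genes were lower. In VISTA KO 2 of 20 were higher and 3 lower (median -0.22), near the 13.3% of all genes. Pparg, the PPAR gamma gene, was lower at -2.08 and -1.52. Nr1h3, which codes for LXR alpha, was lower at -0.99 and -1.91, while 1 of 9 LXR and efflux genes was higher in each library (Scd2) and 3 and 2 were lower. Of 11 TREM2 signalling genes none was higher; 2 were lower in WT, 0 in VISTA KO, with medians of -0.13 and -0.18, near those of all genes. Of 15 genes of lysosomal lipid breakdown, 1 was higher and 4 lower in WT, and 2 higher and 3 lower in VISTA KO. Psap, the saposin precursor, was higher in both (0.64 and 0.62). Counts in the other lists were small, with Trem1 of the TREM family higher (0.95 and 0.95) and the osteopontin-binding integrins Itgb5 and Itga9 lower in both libraries.

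The second comparison was VISTA KO against WT within a cell class. In macrophage-like cells 1 of the 10 genes was called higher, against 5.96% of 12037 genes, and 2 lower, against 2.55%. Pltp had 55.29 CPM (WT) and 114.1 CPM (VISTA KO), a log2 ratio of 1.04 (0.94 to 1.15). It was called higher in each of the 5 macrophage-like clusters. Its log2 ratios there ran from 0.69 in Folr2+ cells to 1.70 in the cluster led by interferon-induced Ifit genes. In the pooled class Pltp was called under all 10 alternatives of processing, at 0.63 or more. The NK cell-like cluster, which should lack Pltp, rose too, from 23.98 CPM in WT to 55.32 in VISTA KO. The part of background RNA in the Pltp ratios was not tested.

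Spp1 and Cd36 were lower in the pooled macrophage-like cells. Spp1 stood at 957.7 and 605.6 CPM (log2 -0.66, -0.69 to -0.63) and Cd36 stood at 63.34 and 36.91 CPM (-0.78, -0.90 to -0.66). Within clusters neither was lower throughout. Spp1 stood at 198.6 and 260.6 CPM in the cluster led by Cxcl9 and Nos2 (0.39), at 1077 and 1250 CPM in the Ccl7 cluster (0.22), and at 432.4 and 442.6 CPM in the Ifit cluster (0.03). The Mmp12+ cluster gave -0.14 and the Folr2+ cluster -1.09. Cd36 had the same shape, with 0.14, 0.25 and 0.17 in the 3 other clusters, -0.36 in Mmp12+ and -1.02 in Folr2+ cells. The Cxcl9 cluster, where both genes were low, held 384 WT and 3033 VISTA KO cells, and with the 5 clusters weighted equally the ratios were -0.15 for Spp1 and -0.33 for Cd36, neither called. Spp1 also lost its call with each library clustered alone (-0.49) and with cells thinned to 1000 UMIs (-0.47). In the sum over a class, fewer cells of a kind and less RNA per cell cannot be told apart. The part of class makeup in the pooled ratios was not tested.

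**Figure D4:**
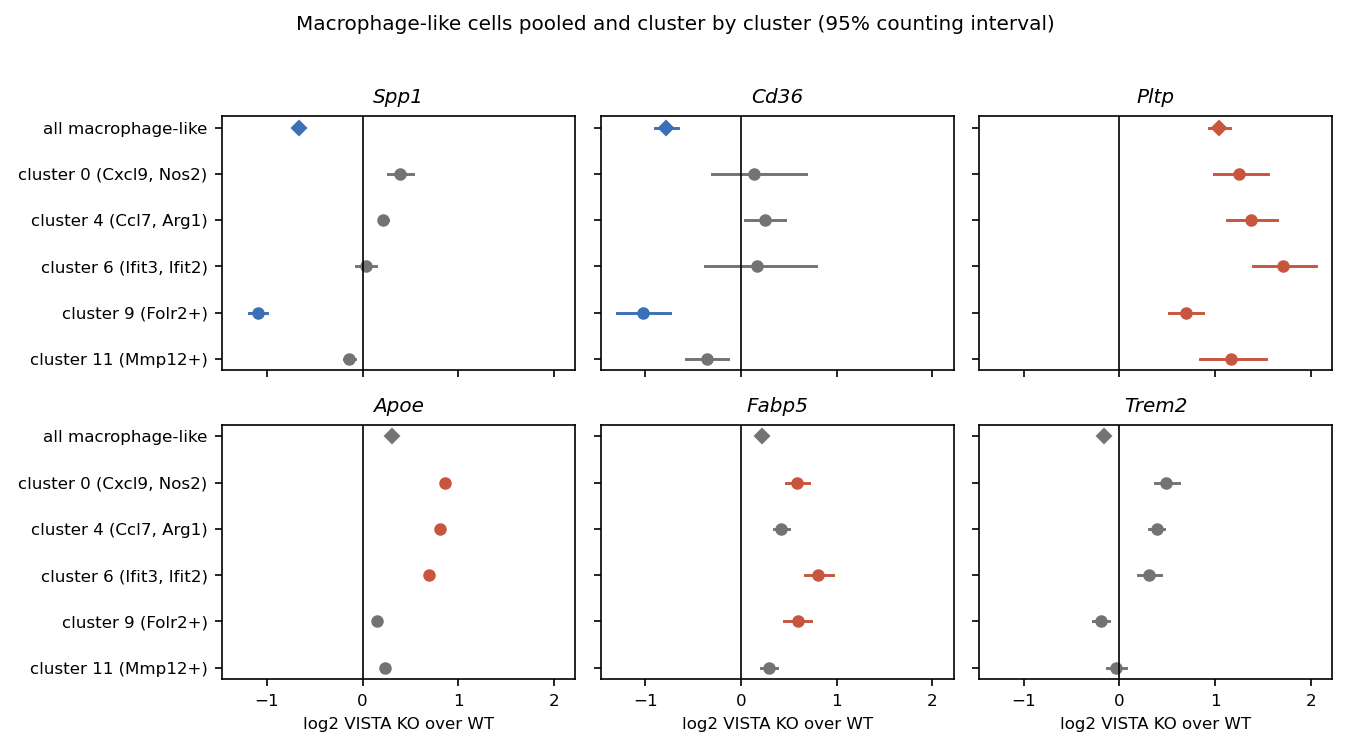
Log2 ratio of VISTA KO over WT in all macrophage-like cells together and in each of the 5 clusters, with 95% counting intervals. For Spp1 and Cd36 the pooled point (-0.66 and -0.78) lies below those of 4 of the 5 clusters, whereas Pltp is above 0 in every cluster.

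Apoe was not called in the pooled class, at 5257 and 6513 CPM (log2 0.31, 0.30 to 0.32), but was called in the 3 macrophage-like clusters other than Folr2+ and Mmp12+, at 0.86, 0.81 and 0.70. In Folr2+ cells, where it was most abundant, its log2 ratio was 0.15, and in Mmp12+ cells 0.23. Across the 16 clusters with at least 50 cells in both libraries, Apoe was above 0 in 16 and called higher in 11. Pltp was called higher in 11 of 15 measured clusters, Abca1 and Fabp5 in 6 of 16 each, and Trem2 in 1 of 16. None of these genes was called lower in a cluster. Cd36 and Lpl were called lower in 4 of 15 measured clusters each, Fabp4 in 3 of 6 and Spp1 in 2 of 16. Gpnmb was called higher in 2 of 10 and Fabp4 in 2 of 6. The 16 clusters include NK cell-like and neutrophil-like cells. The share of all genes called is not given here for every cluster, so these counts lack that background. Trem2 in macrophage-like cells stood at 469.9 and 421.3 CPM, a log2 ratio of -0.16 that was not called under any of the 10 alternatives.

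Within Folr2+ cells, 2 genes were higher in VISTA KO (3.93% of 9401 genes were) and 3 lower (2.06% of genes were). Pltp stood at 163.8 and 265.2 CPM (log2 0.69, 0.52 to 0.87) and Fabp5 at 253.4 and 382.1 (0.59, 0.45 to 0.74), with Fabp5 just past the threshold and called under only 3 of 7 alternatives. Spp1 was lower, at 990.5 and 463.9 CPM (-1.09, -1.19 to -1.004), in a similar share of cells, 44.9% and 40.0%. Cd36 stood at 104.9 and 51.66 CPM (-1.02, -1.30 to -0.74) and Lpl at 66.6 and 43.73 CPM (-0.61, -0.93 to -0.28). With finer clusters Spp1, Cd36 and Lpl were at -0.57, -0.51 and -0.43 and not called. With cells thinned to 1000 UMIs Cd36 (-0.67), Lpl (-0.42) and Pltp (0.58) were not called.

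Within Mmp12+ cells, 2 genes were higher, against 3.87% of 8709 genes, and none was lower, against 1.72%. Pltp stood at 47.82 and 108.5 CPM (log2 1.17, 0.84 to 1.53), and its share of cells was 19.1% and 33.9%; with a stricter cell filter the ratio was 0.55 and not called. Fabp4 stood at 12.22 and 39.14 CPM (1.63, 1.03 to 2.39), but the share of cells with a UMI was 6.498% and 5.88%: in VISTA KO all 118 UMIs lay in 42 cells or fewer, and 52 in 1 cell. Its ratio was 0.66 with each library clustered alone and also with the 10 genes and the listed lipid genes used for clustering. Thinned, it was 0.68 and not called. Gpnmb (0.26, -0.003 to 0.54), Trem2 (-0.03), Spp1 (-0.14), Cd36 (-0.36), Lpl (0.49), Fabp5 (0.29), Abca1 (0.27) and Apoe (0.23) were not called.

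**Figure D5:**
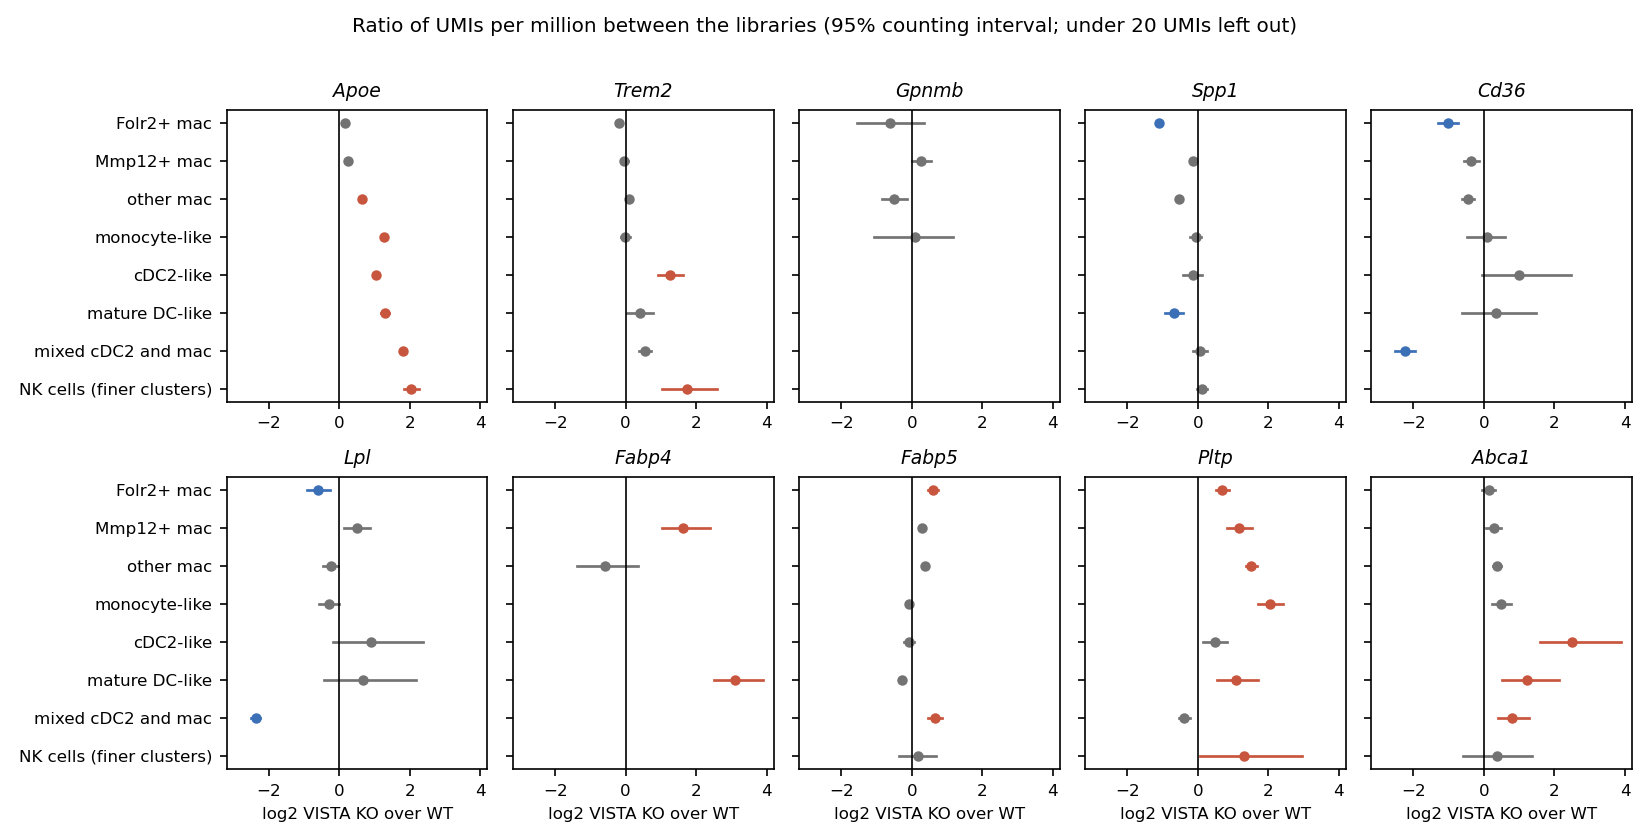
Log2 ratio of VISTA KO over WT for each gene in the cell classes, with 95% counting intervals and points with under 20 UMIs left out. Pltp lies above 0 in every macrophage and monocyte class, Apoe reaches 1.80 and Lpl and Cd36 fall to -2.38 and -2.24 in the mixed cDC2 and macrophage class.

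In monocyte-like cells (2870 and 2408), 2 of 9 measured genes were higher, against 5.72% of 10432 genes, and none was lower, against 2.35%. Apoe had 722.9 CPM (WT) and 1749 CPM (VISTA KO; log2 1.27, 1.24 to 1.31). Pltp stood at 6.936 and 28.96 CPM (2.05, 1.72 to 2.42). Both were called under all 10 alternatives. With each library clustered alone Apoe stood at 2.40 and Pltp at 3.51, but the class then held 2771 WT and 5412 VISTA KO cells. Those ratios thus compare other sets of cells than the 2870 and 2408 above. In the 2870 and 2408 cells macrophage markers summed to 2715 and 3152 CPM. All 5 erythroid markers summed to 1.992 and 208.8 CPM there. The part of both marker sets in the ratios was not tested. NK cell-like cells, which should lack Apoe, Trem2 and Pltp, were read as background from the finer clusters (507 and 402 cells, median depths 2200 and 2305 UMIs against 4420 and 3870 in monocyte-like cells), a choice made after the values had been seen. There Apoe stood at 187.3 and 771.8 CPM, a log2 ratio of 2.04, and C1qa at 44.11 and 213 CPM (2.25). Thinned to 1000 UMIs per cell, 29.7% of WT and 58.9% of VISTA KO monocyte-like cells held Apoe, against 16.5% and 48.7% of NK cell-like cells; unthinned, the shares were 57.4% and 88.7% against 31.8% and 77.1%. The background of Apoe was thus higher in the VISTA KO library too, and its part in the monocyte ratio was not tested. For Pltp the NK cell-like levels were 5.062 and 13.63 CPM, and its thinned shares 0.408% and 0.769% against 0.711% and 3.07% in monocyte-like cells.

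Spp1 in monocyte-like cells, at 75.19 and 71.87 CPM, was close to its level in cDC2-like cells, 77.03 and 69.5 CPM. NK cell-like cells had 702.9 and 762.4 CPM of Spp1, more than in the coarser NK cell-like cluster (619.7 and 580.5 CPM) that held more macrophage RNA, so they give no background for this gene. Gpnmb, with 18 and 13 UMIs over all monocyte-like cells, and Cd36, with 72 and 52, were near the limit of detection. Trem2 stood at 93.41 and 92.89 CPM (log2 -0.01, -0.13 to 0.12), above the NK cell-like 14.46 and 50.26 CPM.

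In cDC2-like cells (424 and 699), conventional dendritic cells that present antigen to CD4 T cells, Apoe stood at 581.4 and 1205 CPM (log2 1.05), Trem2 at 33.34 and 80.87 (1.27) and Abca1 at 3.066 and 19.04 (2.48, 1.59 to 3.90). C1qa was called higher as well, at 141.8 and 299.5 CPM (1.08). The thinned Apoe shares, 17.1% and 36.8%, stood beside 16.5% and 48.7% in NK cell-like cells, whose levels were 187.3 and 771.8 CPM. The thinned Trem2 shares of 1.91% and 5.94% stood beside 1.63% and 5.39% in NK cell-like cells, at 14.46 and 50.26 CPM. For both genes the shares were not above the background beyond counting error while the levels were higher; the part of free RNA was not tested. Abca1 rested on 8 WT and 77 VISTA KO UMIs.

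The mixed cDC2 and macrophage cluster (140 and 504 cells, median depths 8746 and 6974 UMIs) was the one with the most Lpl in both libraries. Lpl was found in 67.1% of its WT and 18.3% of its VISTA KO cells, at 1122 and 215.8 CPM, a log2 ratio of -2.38 (-2.50 to -2.26). Cd36 stood at 212.1 and 44.81 CPM (-2.24, -2.52 to -1.97), in 49.3% and 13.7% of cells. Both were called lower under all 10 alternatives, between -2.86 and -0.9998 for Lpl and between -2.58 and -0.64 for Cd36, each nearest to 0 with library-marking genes kept out of the clustering. Apoe went the other way, at 1279 and 4453 CPM (1.80, 1.73 to 1.87), with C1qa at 1788 and 2900 CPM (0.70); Apoe lost its call in 3 of the 10, down to 0.16. Over all kept cells Lpl was called lower, at 57.14 and 30.22 CPM (-0.92, -0.99 to -0.84), and without the mixed and unnamed clusters it was not (-0.13, -0.25 to 0.0009). In the same cluster the 12 macrophage markers summed to 7026 CPM in WT and 10811 CPM in VISTA KO, and the 8 cDC2 markers to 1240 and 906.8 CPM; their part in these ratios was not tested.

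In mature DC-like cells (170 and 259), which carry antigen to lymph nodes and express Ccr7, Fabp4 stood at 19.59 and 175 CPM (log2 3.09, 2.50 to 3.89). Of its 273 VISTA KO UMIs, 98.2% lay in 26 cells, and 1 cell held 90. In WT 5.29% and in VISTA KO 12.0% of cells held a UMI. The unnamed Ace cluster (166 and 97 cells) had the reverse, with Fabp4 at 248.4 and 48.24 CPM (-2.31, -3.06 to -1.73). Over all kept cells Fabp4 was level, at 6.126 and 6.453 CPM (0.07, -0.12 to 0.27). Without the mixed and unnamed clusters it was called higher, at 2.578 and 7.594 CPM (1.55, 1.23 to 1.90).

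The wider lipid lists differed little between the libraries in macrophage-like cells, where the median gene was at 0.08. None of 11 TREM2 signalling genes was called (median 0.10), with Syk, the kinase downstream of TYROBP, at 0.44. None of 15 genes of lysosomal lipid breakdown (median 0.11), 8 MiT/TFE genes (0.13), 8 osteopontin receptors (0.29), 6 apolipoproteins (0.14), 4 TREM family genes (-0.18) or 9 lipase cofactors and transfer genes (0.09) was called either. Of 14 lipid-associated macrophage markers, Itgax (0.78) and Axl (0.65) were higher and Cd9 lower, at 129.5 and 73.19 CPM (-0.82). Of 9 LXR and efflux genes, Nr1h3 was higher, at 12.59 and 24.37 CPM (0.95), and Scd2, a desaturase, lower (-0.86). Among genes of cholesterol synthesis, Stard4, a sterol carrier, was higher (0.79) and none was lower.

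Of 11 lipid droplet genes none was higher and 2 were lower: Hilpda, at 309.3 and 182.8 CPM (-0.76), and G0s2, at 19.96 and 11.79 CPM (-0.76). Neutrophil markers summed to 617.2 and 522.4 CPM in the same cells, and their part in G0s2 was not tested. Of 9 measured scavenger receptors, Olr1 (0.72) and Cxcl16 (0.64) were higher. Of 20 PPAR and oxidation genes, Ppargc1b (1.14) and Acsl1 (0.98) were higher. Of 9 fatty acid synthesis genes Me1 was higher, and of 2 measured other FABP genes Fabp3 was lower (-0.89).

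In monocyte-like cells (median gene 0.07) none of the TREM2 signalling, lysosomal lipid breakdown, osteopontin receptor, fatty acid synthesis, other FABP or transfer genes was called. Cd9, Scd2 and G0s2 were again called lower, and Ppargc1b and Cxcl16 again higher. Apoc1, a small apolipoprotein coded next to Apoe, was the 1 apolipoprotein called higher of 4 measured.

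Likeness of pattern was measured by Pearson's r over 35 points, each 1 cluster in 1 library, which share libraries and depth. Apoe and Trem2 were alike (0.92), and Abca1 was close to both (0.86 with Trem2, 0.83 with Apoe). Trem2 was closest to Ctsl (0.94) and to C1qc and C1qb (0.93 each), and Abca1 to Tpp1, Ctsb and Adgre1 (0.93, 0.92 and 0.90). Gpnmb was closest to Fbxo32 and Mmp13 (0.89 each) and Gdf15 (0.86), and Spp1 to Ctsd (0.88), Pf4 (0.83) and Calm2 (0.81). Cd36 and Lpl were alike at 0.72; Cd36 was closest to Lipa (0.82) and Lpl to Clec4b1 and Retnla (0.80 each). Fabp5 was closest to Il12b, Gga2 and Cacnb3 (0.84 each), Fabp4 to Eno3 (0.85), and Pltp to Slamf9 (0.84), Mrc1 and Daglb (0.83 each). Fabp4 and Fabp5, on the same part of chromosome 3, were at 0.55.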

How the data were processed

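Cells were profiled with 10x 3 prime v3.1 chemistry and feature barcoding, per the labels. The deposited matrices hold whole-number UMI counts that the authors made with Cell Ranger (5.0.0 per the file headers; mm10 and Seurat 4.0 per the submitters' processing notes, with no step named); the 3 antibody tags are deposited counts too. Cells with at least 200 genes, 500 UMIs and at most 10% mitochondrial UMIs were kept. No doublet caller was used; clusters with markers of several types were kept apart. Both libraries were clustered together with scanpy 1.11.5 (2000 variable genes per library, 30 components, 15 neighbours, Leiden resolution 1, seed 7), leaving out the 10 genes, the listed lipid genes, Vsir, and genes of mitochondria, ribosomes, the cell cycle and sex (Xist and Y-linked). Clusters were named from fixed markers: 3 or more at 1.5-fold and in 20% of cells, mixed with 3 macrophage markers in 60% of cells, and macrophage-like also with 7 of 12 such markers in 60% where no type had 3; these thresholds were set after the clusters were seen. UMIs were summed per class and library and divided by that sum (CPM). Log2 ratios used a pseudocount of 1 UMI and exact conditional binomial 95% intervals; levels have Poisson and shares Clopper-Pearson intervals. Named list genes were up to 2 highest and 2 lowest ratios in macrophage-like cells per list, with at least 100 UMIs; any other list gene was named after its values were seen. The ratio calls were run on simulated Poisson sums with known fold changes. These sums had no spread between cells or animals, so they could not test how such spread affects the intervals. The 10 genes and the 15 lists were chosen with earlier results of these data known. The median of all genes is over genes with at least 100 UMIs. Promoter sequences are RefSeq's. Some genes of the lists are not reported here by name.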

Additional observations from a re-analysis of the deposited data

How the results depend on the processing

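No paired analysis was possible because there was 1 library to a group. Over 10 alternatives, 389 of 590 member ratios moved less than their interval. The sign changed in 49, of which 3 were ratios that had been called. In the mixed cDC2 and macrophage cluster Fabp5 (0.66) went to -0.24 with each library clustered alone. With the 10 genes and the listed lipid genes used for clustering, Fabp5 went to -0.0783 and Abca1 (0.80) to -0.26. The cause was not tested. The 1 gene called higher in VISTA KO macrophage-like cells became 2 with library-marking genes kept out of clustering and with clusters weighted equally. The 2 lower became 4 at a lower fold threshold, with a stricter cell filter and at Leiden resolution 2. They also became 4 with the 10 genes and the listed lipid genes used for clustering. They became 1 with each library alone, and 0 at 2-fold and with equal weights. The 2 higher in monocyte-like cells became 8 with each library alone, where that class held 2771 WT and 5412 VISTA KO cells. They became 4 at resolution 2 and with the 10 genes and the listed lipid genes used. The 0 lower became 1 with library-marking genes out. The 2 lower in Mmp12+ than Folr2+ cells became 1 in both libraries when scaled to the median gene and at 2-fold, and in VISTA KO also without the 5% of cells with the most UMIs and with that library alone; the 5 and 6 called higher stayed within 1.5 times. A stricter filter, and clustering with the 10 genes and the listed lipid genes, merged Folr2+ and Mmp12+ cells. WT alone gave no Folr2+ cells, and leaving out library-marking genes gave no Mmp12+ cells. A set missing under a setting had no value there. The share of all genes called under each alternative is not given here. The changed counts therefore describe the settings and are not results about the 10 genes alone. Depth limits Gpnmb and Fabp4 outside their top clusters.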
